A study of Mus musculus with 6 samples.

Results

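Differentially methylated regions (DMRs) at 8 genes of BMP and TGFβ signaling were examined in lung endothelial cells (EC) of infant and young adult mice: the type II receptors *Bmpr2* and *Tgfbr2*, the type I receptors *Acvrl1* (ALK1) and *Acvr1b* (ALK4), the co-receptor *Eng* (endoglin), the extracellular modulator *Ltbp3*, the ubiquitin ligase *Smurf2* and the nuclear corepressor *Ski*. A DMR was counted for a gene when its midpoint fell inside the RefSeq gene body or no more than 10 kb away from it. This gave 81 of the 18333 listed DMRs, with 360 CpGs: 20 at *Bmpr2*, 16 at *Smurf2*, 15 at *Acvr1b*, 11 at *Eng*, 10 at *Ski*, 7 at *Acvrl1* and 1 each at *Tgfbr2* and *Ltbp3*. Of these, 77 lay in gene bodies and 4 in the flanks.

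The infant group held 3 samples from pups aged 8 to 10 days and the young adult group 3 samples from mice aged 8 to 12 weeks. All were C57BL/6N mice, described as female in the study's methods, and neither the labels nor the methods name a treatment, transgene or deletion for them. EC were sorted from lung as CD31+ CD34+ cells that lacked markers of leukocytes, lymphatic EC, erythroid cells and dead cells, and their DNA was read by bisulfite sequencing of tagmented libraries (T-WGBS), in which unmethylated cytosines are converted and methylated ones are not. The study reports a check of sort purity by qPCR of marker genes. That purity could not be checked again here, because no expression values were analysed. The deposited list gives 1 mean per group and DMR, averaged by the authors over the 3 samples, so that the spread between samples and the depth behind a single DMR are unknown and no difference was tested. Each region was listed because its CpGs passed a test between the same samples, and the differences are therefore those of selected regions. In a sorted population, a mean between 0 and 100% does not tell apart a partial change in every cell from a full change in some of them.

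BMP and TGFβ ligands bind a complex of type II and type I serine/threonine kinase receptors. The type II receptor activates the type I receptor, which phosphorylates receptor-regulated Smads that enter the nucleus with Smad4. In EC, ALK1 and endoglin respond to circulating BMP9 and BMP10, and mutations of *ENG*, *ACVRL1* and *BMPR2* are known from inherited vascular disease, namely hereditary hemorrhagic telangiectasia and pulmonary arterial hypertension. LTBP proteins hold latent TGFβ in the matrix, SMURF2 marks receptors and Smads for degradation, and SKI represses Smad-driven transcription. Methylation of CpGs in introns and far from promoters is often low where a regulatory element is in use.

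The regions that carry the largest losses are shown as the plus strand of GRCm38 (mm10), with the CpGs of the DMR in capitals. For each gene with loss, the sequence is that of the largest difference among DMRs of at most 300 bases outside exons.
Bmpr2 intron 1, chr1:59775854-59776062: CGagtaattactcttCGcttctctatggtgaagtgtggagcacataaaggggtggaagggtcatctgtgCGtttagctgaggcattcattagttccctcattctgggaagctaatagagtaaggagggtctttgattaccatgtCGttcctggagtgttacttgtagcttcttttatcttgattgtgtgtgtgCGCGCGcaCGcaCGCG
Tgfbr2 intron 1, chr9:116163908-116164136: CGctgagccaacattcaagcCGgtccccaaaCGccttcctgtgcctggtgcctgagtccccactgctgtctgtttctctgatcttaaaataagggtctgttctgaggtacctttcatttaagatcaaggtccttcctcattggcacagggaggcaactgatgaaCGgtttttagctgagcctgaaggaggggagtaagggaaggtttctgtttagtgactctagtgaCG
Acvrl1 downstream flank, chr15:101149899-101150042: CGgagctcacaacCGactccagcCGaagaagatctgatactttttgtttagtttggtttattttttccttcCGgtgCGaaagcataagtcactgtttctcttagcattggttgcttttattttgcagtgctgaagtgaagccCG
Acvr1b intron 1, chr15:101178628-101178746: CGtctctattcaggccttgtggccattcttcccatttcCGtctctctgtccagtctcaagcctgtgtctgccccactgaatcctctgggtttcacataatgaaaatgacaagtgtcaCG
Eng intron 1, chr2:32652588-32652855: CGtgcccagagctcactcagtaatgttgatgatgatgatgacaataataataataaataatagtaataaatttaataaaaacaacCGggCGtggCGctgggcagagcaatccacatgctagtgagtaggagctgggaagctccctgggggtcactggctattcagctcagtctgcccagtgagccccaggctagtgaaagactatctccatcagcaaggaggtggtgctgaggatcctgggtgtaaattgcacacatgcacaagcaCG
Smurf2 intron 10, chr11:106846770-106846983: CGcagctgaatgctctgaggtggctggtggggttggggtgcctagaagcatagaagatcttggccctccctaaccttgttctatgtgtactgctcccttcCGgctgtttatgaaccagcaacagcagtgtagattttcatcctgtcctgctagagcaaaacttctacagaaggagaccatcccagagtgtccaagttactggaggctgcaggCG
Ski intron 1, chr4:155214256-155214386: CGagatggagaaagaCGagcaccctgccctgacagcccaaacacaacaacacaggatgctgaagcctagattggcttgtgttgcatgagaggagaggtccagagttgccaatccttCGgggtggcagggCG
The *Bmpr2* region held 10 CpGs, of which 6 lay in its last 30 bases, where a run of TG repeats passes into CG repeats. The other regions held 3 to 6 CpGs.

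A further 3 windows of 100 bases, chosen after their values were seen, show the coding DMR at which *Acvrl1* lost most methylation and both DMRs that gained it.
Acvrl1 exon 9, chr15:101137332-101137431: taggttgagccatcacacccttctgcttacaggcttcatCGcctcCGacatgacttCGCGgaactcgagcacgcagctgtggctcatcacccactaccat
Eng upstream, gain, chr2:32642794-32642893: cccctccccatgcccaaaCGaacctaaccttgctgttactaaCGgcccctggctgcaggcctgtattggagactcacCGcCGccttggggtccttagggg
Ltbp3 exon 24, gain, chr19:5756807-5756906: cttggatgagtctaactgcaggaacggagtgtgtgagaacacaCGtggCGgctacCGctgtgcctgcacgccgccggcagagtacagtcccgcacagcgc
In these windows the lower-case cg pairs are CpGs outside the DMR.

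Of the 81 DMRs, 79 lost methylation from infant to young adult and 2 gained it. The share with loss was 97.5%, against 45.9% of all listed DMRs. The rule took every DMR at these genes whatever its direction, but the genes were named with earlier results of these data known, so the share is a description. The 6 genes with more than 5 DMRs were *Bmpr2*, *Smurf2*, *Acvr1b*, *Eng*, *Ski* and *Acvrl1*. Of 26089 curated RefSeq genes, 2.34% had as many in the body or within 10 kb, a share not matched for gene length. In 5 of the 6, every DMR showed loss, a pattern that 40.5% of all genes with more than 5 DMRs had. *Eng* was the exception, with 10 loss DMRs and 1 gain DMR.

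**Figure D1:**
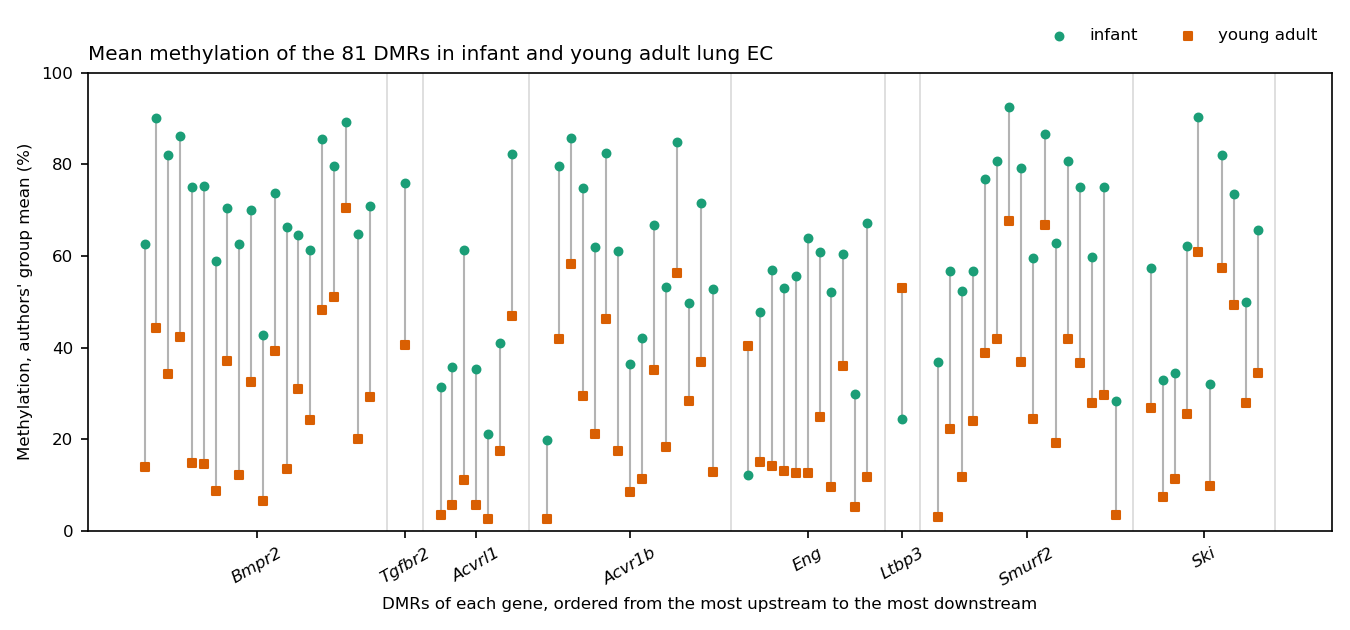
Authors' group mean of methylation (percent, y axis) of each of the 81 DMRs in infant (circles) and young adult EC (squares), grouped by gene and ordered along transcription (x axis). The young adult mean lies below the infant mean in 79 DMRs and above it in 1 DMR each of *Eng* and *Ltbp3*; no error bars are drawn because values per sample were not analysed.

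*Bmpr2*, the type II receptor for BMP ligands (chromosome 1, 59764279 to 59878081, plus strand, 13 exons), carried 20 loss DMRs and no gain DMR, all in introns. Methylation over these DMRs had a median of 70.6% in infants and 30.1% in young adults, and the median difference was -42.7 percentage points, with a range from -60.6 to -18.7. Intron 1, which makes up 42.9% of the gene, held 15 of the 20, and introns 2, 3 and 5 held 1, 3 and 1. Together the DMRs spanned 83 of the 689 CpGs that the reference sequence has in the gene body, or 12.05%.

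A pair of dense stretches opened intron 1 of *Bmpr2*. In the first, whose first DMR had its midpoint 4.004 kb from the gene start, 4 DMRs within 1.92 kb held 18 of the 19 CpGs there. Their means fell from 62.7 to 13.9%, from 90.04 to 44.3%, from 82.0 to 34.2% and from 86.1 to 42.2%. In the second, at 11.2 to 12.6 kb, 3 DMRs within 1.82 kb held 20 of 23 CpGs. These fell from 75.1 to 14.8%, from 75.3 to 14.6% and from 58.9 to 8.58%, so that every one ended below 20%, while 3 of the 4 in the first stretch stayed above 30%. The first and second of these had the largest differences of the 81 DMRs, -60.3 and -60.6 points, and the latter is the sequence printed for *Bmpr2*.

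Farther into *Bmpr2* the losses continued at wider spacing. The DMR at chr1:59780700-59780943 fell from 62.7 to 12.1%. It overlaps an amplicon of MassARRAY, a targeted methylation assay whose values were not analysed here. Which of its CpGs the amplicon covers was not determined. One at 24.9 kb had the lowest infant mean in the gene, 42.7%, and reached 6.40%. In intron 3, 62.4 kb from the start, 89.2% fell to 70.5%, the smallest difference in the gene, whereas the next DMR downstream, at 71.5 kb, fell from 64.7 to 20.1%. No DMR was listed in the part of the gene beyond 79.4 kb, which includes exons 6 to 13.

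*Tgfbr2*, the type II receptor for TGFβ (chromosome 9, 116087695 to 116175363, minus strand), had 1 DMR among the 1174 CpGs of its body. It lay in intron 1, 11.3 kb from the start, and its 5 CpGs fell from 76.0 to 40.6%. The upstream DMRs nearest to the gene fell outside the limit and went the other way: 4 gain DMRs lay 10 to 50 kb upstream, with infant means of 17.6 to 52.1% and young adult means of 34.8 to 87.5%. The 2 type II receptors thus differed in number of DMRs, 20 against 1, in gene bodies of 114 and 87.7 kb.

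*Acvrl1*, the endothelial type I receptor (chromosome 15, 101128522 to 101145336, plus strand, 12 exons), carried 7 loss DMRs. These started lower than those of the other genes with more than 1 DMR and ended lower: the median was 35.8% in infants and 5.63% in young adults, and 15.8% of the infant level was left. Unlike at the other genes with loss, most body DMRs lay in coding sequence. One was in intron 2, 2.44 kb from the start, where 31.3% fell to 3.53%, and the other 4 formed a stretch of 1.29 kb over exons 8, 9 and 10, which encode part of the kinase domain.

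In that stretch, 19 of 40 CpGs belonged to DMRs. Exon 8 fell from 35.8 to 5.63% over 5 CpGs and exon 10 from 21.2 to 2.56% over 3 CpGs. Exon 9 held a pair of DMRs: the first, whose sequence is printed, fell from 61.3 to 11.05% over 4 CpGs, and the second fell from 35.3 to 5.58% over 7 CpGs. All 4 ended below 12%. Downstream of *Acvrl1*, in the space before *Acvr1b*, a DMR 1.78 kb beyond the gene end fell from 41.1 to 17.4%, and one at 4.63 kb fell from 82.3 to 47.0%. That last mean was the highest of the 7 in both groups.

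*Acvr1b*, the type I receptor for activins (chromosome 15, 101174072 to 101213684, plus strand, 9 exons), is the next of the 8 genes on the same strand and carried 15 loss DMRs. Their median was 61.8% in infants and 28.4% in young adults, with differences from -45.3 to -17.1 points. Intron 1 held 14, and 11 of these lay in a stretch of 7.005 kb that began near the gene start and in which 51 of 102 CpGs belonged to a DMR. Within this stretch the levels were uneven. The first DMR, 1.68 kb from the start, fell from 19.7 to 2.63%, the lowest infant mean of all 79 loss DMRs, and the third, at 4.15 kb, fell from 85.8 to 58.3%.

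The DMR of *Acvr1b* with the most CpGs (13, over 626 bases) fell from 82.6 to 46.1%. The largest difference, from 74.8 to 29.4%, was at the region printed above. A DMR at chr15:101193243-101193450 fell from 71.6 to 36.7%; it was placed as promoter because it lay 523 bases upstream of *Mir6962*, a microRNA gene inside *Acvr1b*. The last DMR, in the UTR part of exon 9 at the end of the gene, fell from 52.7 to 12.8%.

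*Eng*, an endothelial co-receptor for BMP9, BMP10 and TGFβ (chromosome 2, 32646595 to 32682669, plus strand, 15 exons), carried 10 loss DMRs in introns 1 and 2. They fell from a median of 56.3% to 12.8%, with a median difference of -41.3 points and a range from -55.6 to -24.4. The 71 CpGs in these DMRs were 13.2% of the CpGs of the gene body, the largest share among the 8 genes. Young adult means were below 20% in 8 of the 10, and 23.7% of the infant level was left at the median.

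In intron 1 of *Eng*, 7 DMRs within 5.95 kb held 54 of 83 CpGs. Their infant means were alike, between 47.7 and 63.9%, and 6 of the 7 ended between 9.46 and 15.0%. The exception ended at 24.9%. The largest of these regions had 20 CpGs over 1094 bases, more CpGs than any other of the 81, and fell from 52.9 to 13.0%. Another, at chr2:32651477-32651783, fell from 55.6 to 12.7% and was placed as promoter because of the microRNA gene *Mir1954*, whose start is 699.5 bases downstream of its midpoint. In intron 2, one DMR fell from 67.3 to 11.7%, the largest difference in *Eng*, and its neighbour just before it fell from 29.9 to 5.08%.

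The gain DMR of *Eng* lay 3.75 kb upstream of the gene, at chr2:32642812-32642875. Its 4 CpGs rose from 12.1 to 40.4%, a difference of 28.3 points. Between this DMR and the first loss DMR, which had a midpoint 2.18 kb inside the gene, no DMR was listed. *Ltbp3*, which binds latent TGFβ (chromosome 19, 5740900 to 5758532, plus strand, 28 exons), had a single DMR, also with gain. It spanned 14 bases of coding exon 24, 16.0 kb from the start, and its 3 CpGs rose from 24.4 to 53.0%. These were 3 of the 478 CpGs of the gene body. Over all listed gain DMRs the median difference was 20.4 points, below the 28.3 and 28.6 points of these regions.

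**Figure D2:**
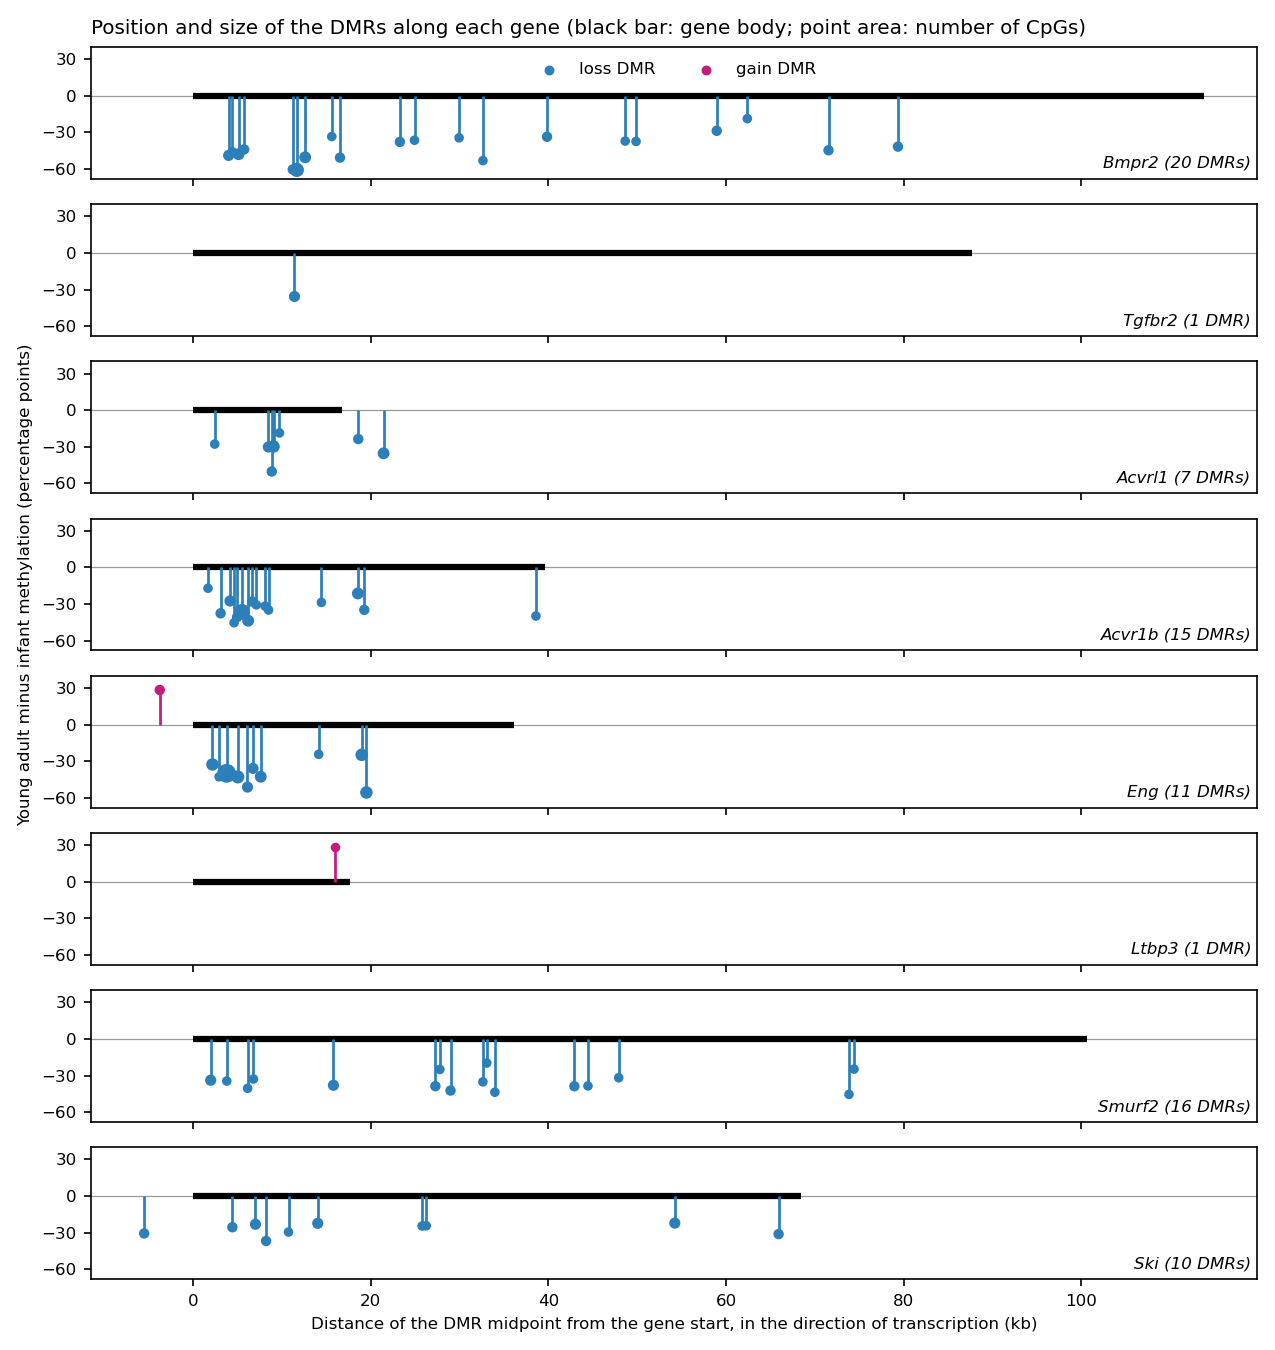
Difference of the authors' group means (young adult minus infant, percentage points, y axis) of each DMR against the distance of its midpoint from the gene start along transcription (kb, x axis), with 1 panel per gene. Point area grows with the number of CpGs and the black bar marks the gene body; 7 of the 10 losses of *Eng* and 11 of the 15 of *Acvr1b* lie in the first 10 kb, those of *Bmpr2* and *Smurf2* reach 79.4 and 74.4 kb, and the gain DMRs stand above 0 at 28.3 and 28.6 points.

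*Smurf2*, the HECT-type ubiquitin ligase (chromosome 11, 106820061 to 106920715, minus strand, 20 exons), carried 16 loss DMRs, all intronic. The median fell from 68.9 to 28.7%, and the differences ran from -45.4 to -19.8 points. Intron 1, which makes up 44.0% of the gene, held 13, intron 2 held 1 and intron 10 held 2. Methylation near the gene start was mostly lower in both groups than from 15.8 to 29.0 kb in intron 1. The DMR at 1.98 kb fell from 36.9 to 3.03%, and the next 3, up to 6.80 kb, fell from 56.7 to 22.1%, from 52.3 to 11.8% and from 56.8 to 23.9%. From 15.8 to 29.0 kb the 4 DMRs had infant means between 76.7 and 92.6% and young adult means between 36.9 and 67.5%. Farther along intron 1 the levels were mixed. DMRs at 32.6 and 34.0 kb fell from 59.6 to 24.4% and from 62.7 to 19.1%, and those at 33.1, 42.9 and 44.5 kb had infant means of 86.6, 80.7 and 75.1%.

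In intron 10 of *Smurf2*, neighbouring DMRs at 73.8 and 74.4 kb differed in level: one fell from 75.03 to 29.6%, the largest difference in the gene, and the other from 28.3 to 3.51%. A pair of dense stretches in intron 1 held 11 of 12 CpGs over 1.84 kb (a mean over CpGs of 83.4% in infants and 47.1% in young adults) and 9 of 15 CpGs over 1.46 kb (69.6 and 36.7%).

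*Ski* (chromosome 4, 155154075 to 155222535, minus strand, 7 exons) carried 10 loss DMRs, 8 of them in intron 1, which makes up 88.5% of the gene. The changes were smaller than in *Bmpr2*, *Eng*, *Smurf2* and *Acvr1b* at the median, -25.0 points with a range from -36.8 to -22.1, and 49.6% of the infant level was left. The lowest means were those of the DMRs at 4.42 kb, from 32.8 to 7.27%, at 7.02 kb, from 34.5 to 11.4%, and at 14.03 kb, from 32.1 to 9.76%. Between them, at 10.7 kb, 90.3% fell to 60.8%. The DMR in the UTR part of exon 7 fell from 65.7 to 34.5%, and the one upstream of the gene fell from 57.4 to 26.8%.

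The outermost member was the upstream DMR of *Ski*, 5.51 kb from the gene. The nearest regions left out were a loss DMR 16.6 kb upstream of *Bmpr2*, from 83.2 to 46.3%, and a gain DMR 19.99 kb downstream of *Ski* in the gene *Morn1*, from 54.4 to 72.8%. None lay between 5.51 and 16.6 kb from any of the 8 genes.

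Intronic DMRs were 68 of 81 (84.0%), against 58.4% of all listed DMRs. Among loss DMRs alone the shares were 86.1 and 75.3%. The limit to genes and their flanks raises the members' share. Exons held 7 DMRs (8.64% against 6.998%) and promoters 2 (2.47% against 2.11%), neither at the promoter of a member, and 4 were intergenic (4.94% against 32.5%), a share that the rule itself limits. The GC content of the 200 bases around the midpoint had a median of 48.0%, against 48.5% for all DMRs, and the ratio of observed to expected CpGs was 0.306 against 0.334, which is low as in most of the genome outside CpG islands. The midpoint lay in a sequence that the reference marks as repeat or low complexity in 18 DMRs (22.2% against 14.9%), all of them loss DMRs, and 6 of these were in *Bmpr2*.

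The sizes of the losses resembled those of the whole list. The median loss DMR of the 8 genes fell from 62.7 to 24.4%, and the median of all 8422 loss DMRs from 61.5 to 25.4%. The median difference was -35.3 points, with quartiles of -42.5 and -28.7, against -32.5 points, with quartiles of -38.4 and -26.6. In 8 loss DMRs the difference was at least 50 points (10.1% against 3.70%), of which 5 were in *Bmpr2*, 2 in *Eng* and 1 in *Acvrl1*. Young adult means below 20% were found in 34 of 79 (43.0% against 38.1%), and below 10% in 14 (17.7% against 16.8%). The DMRs were somewhat longer, with a median of 163 bp against 126 bp, and 41.8% of the loss DMRs had the minimum of 3 CpGs, against 52.5%.

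**Figure D3:**
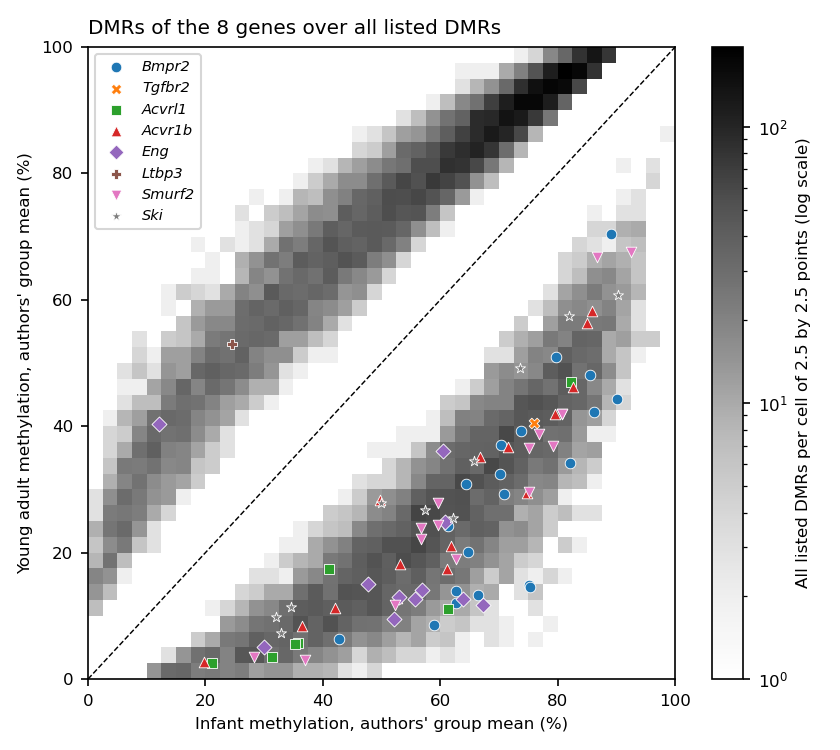
Authors' group mean in young adults (percent, y axis) against that in infants (percent, x axis) for the 81 DMRs, with 1 symbol and color per gene, over the number of all 18333 listed DMRs in cells of 2.5 by 2.5 points (gray, log scale). Points below the dashed line lost methylation, and both gain DMRs lie above it. *Acvrl1* lies mostly at the lower left, and *Bmpr2*, *Ski* and *Smurf2* reach infant means of 90.04, 90.3 and 92.6%. The empty band along the line is set by the minimum difference of the list.

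Levels in infants and young adults rose together from DMR to DMR. Over the 79 loss DMRs Pearson's r was 0.848 and Spearman's rho 0.876, and over all 8422 loss DMRs they were 0.868 and 0.885. The minimum difference of the list shapes these values, and neighbouring DMRs share samples and sequence, so no p was computed.

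Levels also varied with distance from the gene start. In 5 of the 6 genes with more than 5 DMRs, namely *Acvr1b*, *Acvrl1*, *Smurf2*, *Eng* and *Ski*, the body loss DMR nearest to the start had the lowest or second lowest infant mean of its gene. It ranked 1 of 15 in *Acvr1b*, 2 of 5 in *Acvrl1*, 2 of 16 in *Smurf2*, 2 of 10 in *Eng* and 2 of 9 in *Ski*. In *Bmpr2* it ranked 5 of 20. Such ranks were not taken for other genes, so they cannot be read as particular to these genes. Of the loss DMRs in the bodies of the 8 genes, 8 of 14 within 5 kb of the start and 20 of 35 from 5 to 20 kb ended below 20% (57.1% in both ranges), and beyond 20 kb 5 of 27 did (18.5%). For loss DMRs in the bodies of all genes the shares ending below 20% were 47.1% within 5 kb, 35.9% from 5 to 20 kb and 35.5% beyond. The median infant mean of the members was 56.8% within 5 kb, 61.2% from 5 to 20 kb and 70.8% beyond, and the young adult medians were 14.6, 14.8 and 32.4%. For all genes the infant medians were 58.9, 62.9 and 62.6% and the young adult medians 21.1, 26.3 and 26.5%, with little change beyond 5 kb. The distant DMRs came from *Bmpr2*, *Smurf2*, *Ski* and *Acvr1b*. *Acvrl1* and *Eng*, which had the lowest young adult medians, 5.63 and 12.8%, had no body DMR beyond 20 kb. In the pooled shares and medians, distance and differences between genes therefore cannot be told apart.

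Of 58 other genes of the pathway, grouped by role, 33 had a DMR (56.9%, against 26.6% of all genes), 14 had a loss DMR (24.1% against 12.0%) and 27 had a gain DMR (46.6% against 18.4%). Longer genes can hold more midpoints, and all genes, which include microRNA genes, were not matched to these for length. Loss and gain were spread unevenly over the roles, each with few genes. The share with a loss DMR was 9.09% in ligands and 0% in extracellular modulators, against 12.0% of all genes. In roles of this size, few or no genes with loss cannot be read as a trait of the role. Ligands had gain DMRs in 5 of 11 genes and a loss DMR in 1, *Bmp6*, where 61.2% fell to 8.96%. The extracellular modulators other than *Ltbp3* had gain DMRs in 5 of 13 genes and loss DMRs in none. Among them *Ltbp1*, a relative of *Ltbp3*, had 5 gain DMRs with medians of 40.1 and 61.2%.

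The other receptors held few DMRs. The 5 other type I receptors had 1 loss DMR and 4 gain DMRs, all in *Acvr1* and *Bmpr1b*, and *Tgfbr1*, *Bmpr1a* and *Acvr1c* had none. *Acvr2a*, *Acvr2b* and *Amhr2*, the other type II receptors, had 2 of each. *Tgfbr3*, the betaglycan co-receptor related to *Eng*, had 1 loss DMR, from 56.8 to 10.7%, and 3 gain DMRs. Receptor-regulated Smads and *Smad4* had 15 gain and 2 loss DMRs, with 8 gain and 2 loss at *Smad1*. The inhibitory Smads had 64 loss DMRs at *Smad6* and 30 at *Smad7*, and these account for 94 of the 156 loss DMRs of the 58 genes. *Nedd4l*, a ubiquitin ligase of the same family as *Smurf2*, had 18 loss and 2 gain DMRs (loss medians of 64.4 and 30.5%), while *Smurf1* had 2 loss DMRs. *Skil*, the closest relative of *Ski*, had 5 loss DMRs and 1 gain DMR (62.1 and 36.6%). The adaptor *Sptbn1* had 19 loss DMRs, and the endothelial BMP target *Tmem100* 8 loss DMRs, which fell from a median of 44.2 to 5.27%.

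**Figure D4:**
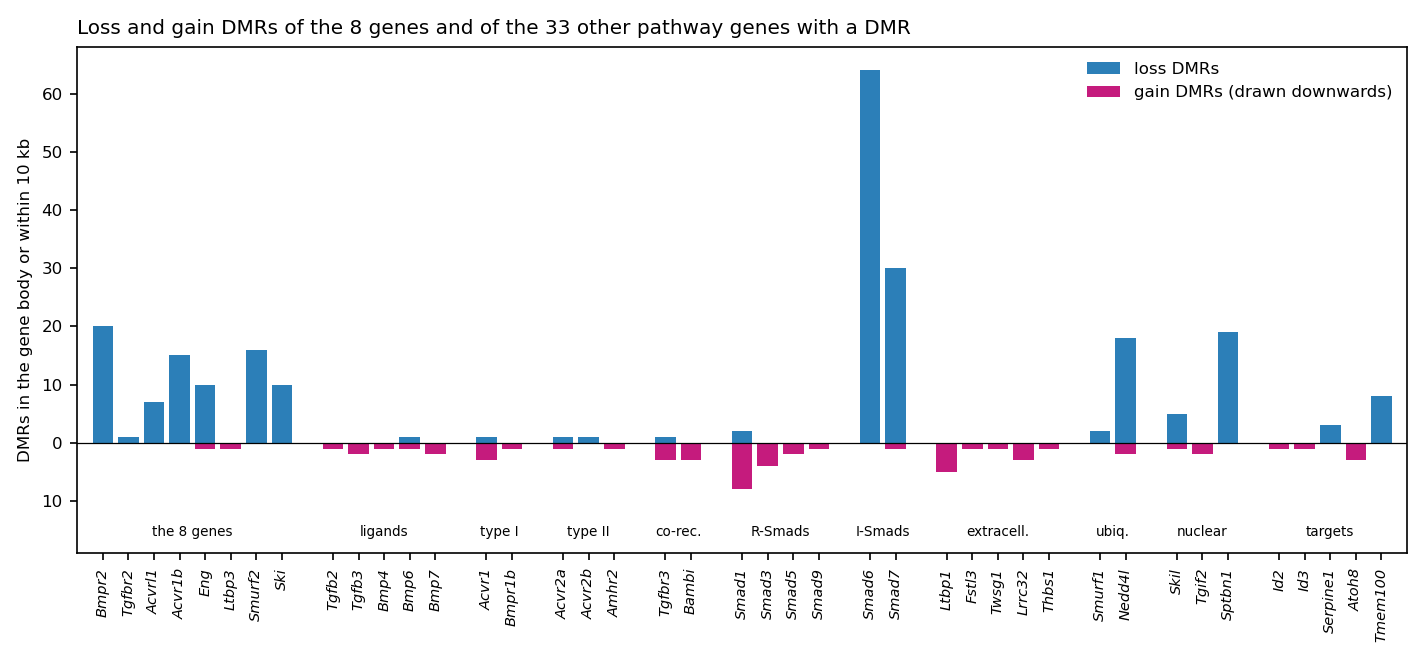
Number of loss DMRs (upwards) and gain DMRs (downwards) in the gene body or within 10 kb (y axis) for the 8 genes and for the 33 of 58 other pathway genes that had a DMR, grouped by role (x axis). *Smad6* is highest with 64 loss DMRs, *Bmpr2* has 20 and *Smad1* reaches farthest down with 8 gain DMRs.

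Genes with like levels were sought among the 604 other genes with more than 5 DMRs, those of the pathway included, by the distance between the pairs of median infant and young adult methylation over all their DMRs, loss and gain. Nearest to *Bmpr2* were *Myl12a*, at 0.652 points with 11 loss DMRs, *Agbl3*, at 0.812 points with 7 loss DMRs and 1 gain DMR, and *Atp13a2*, also at 0.812 points with 8 loss DMRs. Nearest to the 8 genes pooled were *Qk* (0.690 points, 16 loss DMRs), *Dpysl2* (1.10 points, 14) and *Fmnl3* (1.43 points, 8).

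The 200 bases around each midpoint were searched on both strands for the letters of 11 motifs, each counted on its own. Matches were few in the 81 DMRs. The AP-1 motif TGANTCA was in 4 (4.94%, against 6.51% of all listed DMRs), 2 of them in *Bmpr2*. The ETS cores CAGGAA and CCGGAA were in 14 (17.3% against 25.7%) and 3 (3.70% against 4.17%), and both *Acvrl1* and *Smurf2* held the latter. The GATA motif AGATAA was in 6 (7.41% against 11.7%). The TEAD motif GGAATG was also in 6, with the same shares. SOX (ACAATG) was in 4 (4.94% against 10.2%), RBPJ (GTGGGAA) in 2 (2.47% against 4.84%) and FOX (TGTTTAC) in 1 (1.23% against 4.35%). KLF (CCACACCC) was in 3 (3.70% against 2.15%), in *Bmpr2* and *Eng*. The palindromic Smad box GTCTAGAC and the sequence GGCGCC, which BMP Smads bind, were in 0 of the 81 windows and in 0.180 and 1.66% of all. KLF was the one motif of the 11 with a higher share in the 81 windows than in all DMRs. That share rests on 3 windows, and most of the 81 were loss DMRs. Among all loss DMRs the KLF share was 3.13%, close to the 3.70% of the members, and among all gain DMRs it was 1.32%. The other shares among all loss DMRs were 6.83% for AP-1, 26.3 and 4.29% for CAGGAA and CCGGAA, 13.8% for GATA and 11.2% for TEAD. They were 9.57% for SOX, 4.82% for RBPJ, 5.89% for FOX, 0.202% for GTCTAGAC and 1.09% for GGCGCC. All of these were above the shares in the 81 windows of 200 bases. In windows of 100 bases AP-1 (4.94% against 3.35%), CCGGAA (2.47% against 2.27%) and RBPJ (2.47% against 2.30%) had higher shares than in all DMRs too.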

How the data were processed

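The T-WGBS data covered 3 infant and 3 young adult samples of sorted lung EC, each made from 3 libraries of 30 ng DNA. The deposited list gives, per DMR, the fraction of methylation as a mean that the authors took over CpGs and over the samples of a group. Per the study's methods and the submitters' processing notes, reads were demultiplexed with bcl2fastq 1.8.4, trimmed with SeqPrep, aligned to bisulfite-converted mm10 with BWA 0.6.1 and cleared of duplicates with Picard, and 9 bases at read ends were excluded. DMRs were called with bsseq in R 3.2.2 without smoothing: coverage of at least 8 in at least 2 samples of each group, at least 3 consecutive CpGs each with p under 0.05, and a difference of at least 10 percentage points.

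Here, fractions were turned into percent and the infant mean was subtracted from the young adult mean. DMRs were placed by midpoint on the curated RefSeq transcripts (45657, of 26089 genes) of GRCm38.p6, and the sequence there started and ended at a CpG in 18333 of 18333 DMRs. The CpGs of a DMR were counted in the reference sequence it spans, so a counted CpG need not have been measured or have passed the authors' test. Placement took promoter (1 kb upstream to 100 bp downstream of any start) before exon, intron and intergenic. Dense stretches had at least 3 loss DMRs with gaps of at most 2 kb. Scripts ran in Python 3.11.15 with pandas 2.3.3, numpy 2.4.6, pysam 0.24.0, scipy 1.17.1 and matplotlib 3.10.9 and were tested on simulated data. Without values per sample, no test or error of a group mean could be given. The 95% intervals over DMRs, Wilson for shares and binomial ranks for the median difference, served only to judge the alternatives and do not cover the error of a group mean. The members, the list of 58 pathway genes and the motifs were chosen with earlier results of these data known. All 8 genes are named, each with its largest difference, most CpGs, promoter, gain and amplicon DMRs, and pathway genes with more than 5 DMRs. Other DMRs and pathway genes described were chosen after their values were seen. One gene of the pathway is not reported here. Windows, gene models, thresholds and joining of DMRs were varied.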

Additional observations from a re-analysis of the deposited data

How the results depend on the processing

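Of 63 alternatives to the counts, shares and medians over the 8 genes and the pathway list, 56 were classed as unchanged. For counts, which had no interval, this class was wide: it took in 117 DMRs with flanks of 50 kb, against 81 as reported. It also took in the lower counts without flanks and after joining given below. No alternative turned the direction of the median difference, which ranged from -35.9 to -32.9 percentage points. With DMRs of at least 5 CpGs, 25 DMRs were left, 100% with loss, 1 of the 8 genes, *Eng*, had more than 5 DMRs, and 7 pathway genes had a loss and 6 a gain DMR. With flanks of 50 kb the intronic share was 73.5%. When DMRs went to the gene of the promoter the authors listed as nearest, the share with loss was 89.4%, because *Tgfbr2* then held 8 gain DMRs beside 1 loss DMR. Without flanks, *Acvrl1* held 5 DMRs and 27 pathway genes with gain became 18. Joining DMRs at most 500 bp apart left 59. Of 22 changes of the motif window, 18 left the share within the Wilson interval of its count. Leaving out single samples was not run, since the list holds only group means. No paired analysis was possible because the list holds no columns per sample. The depth behind a DMR is unknown, and regions below the coverage minimum could not be listed.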
